A study of Homo sapiens with 8 samples.

Results

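PC3M is a human prostate cancer cell line, and its growth label names the cells PC3M-LN4, a metastatic derivative of PC-3. Its 2 libraries were set against 3 other human lines with 2 libraries each. They were U937 (a leukemic line), EaHy (a line with endothelial genes and, as given below, keratins) and HEK293 (an embryonic kidney line). PC3M therefore supplied 2 of the 8 libraries. The genes in which it stood apart were sought among 15582 of 23615 gene symbols. The series was built to find a receptor for epoxyeicosatrienoic acids (EETs), signalling lipids made from arachidonic acid, by comparing EET-binding lines with a line that does not bind them. No line carried a stated genetic change or drug. U937 and EaHy grew in RPMI with antibiotics and heat-inactivated serum, PC3M-LN4 in the same medium with L-glutamine, and HEK293 in DMEM, so the line and its medium cannot be told apart. Total RNA of the collected cells was depleted of ribosomal RNA and sequenced in pairs of 100 bases. The duplicates were collections of 1 line, so a p-value here describes the spread between collections and not between independent isolates.

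PC-3 cells came from a bone metastasis of a prostate adenocarcinoma that no longer depended on androgen. The line is known as an epithelial cancer line without alpha-catenin, the protein that ties cadherins to actin. An epithelial cell is recognised by its keratin filaments, by tight junctions built on claudins and by desmosomes built on plakophilins and desmoplakin. U937 is a blood cell, and HEK293 has kidney and neuronal features. EaHy carries endothelial genes, but its summed keratin level lay above that of PC3M, as given below. The comparison is therefore not with lines free of epithelial keratins.

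All levels are FPKM, fragment counts normalised for transcript length and library size, divided by the library's upper quartile to make libraries comparable, and are called scaled FPKM. Each difference is the PC3M mean minus the mean of the U937, EaHy and HEK293 line means on the log2(scaled FPKM + 0.5) scale. It is given with its standard error (SE; 2 libraries per line) and limma's two-sided p-value, adjusted over all 15582 genes by Benjamini-Hochberg. The added 0.5 makes the difference understate the change of genes with low values. A gene was called at an adjusted p under 0.05.

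Some libraries stood apart before any comparison: EaHy replicate 2 and both PC3M libraries. The RNA component of RNase MRP, RMRP, reached 276000, 476000 and 507000 deposited FPKM in them, which was 14.3%, 35.6% and 34% of all FPKM, and stayed between 12.3 and 1130 in the other 5. The median histone gene stood at 7.99, 9.71 and 8.47 on the log2 scale in them and between 0.8 and 2.83 elsewhere. The upper-quartile factors ran from 0.327 in PC3M replicate 2 to 1.73 in HEK293 replicate 2. Because both PC3M libraries carried this feature and EaHy replicate 2 shared it, a second fit with a term for these 3 libraries, called the library-term fit below, is quoted beside the results. That fit leaves few degrees of freedom and rests on the difference between the EaHy replicates.

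Of the genes tested, 2019 (13%) were called higher in PC3M and 2627 (16.9%) lower, 4646 (29.8%) in all. The counts of the gene lists below are to be read against these shares. The median log2 difference over all genes was -0.30, and it was -0.98 without scaling, -0.09 after quantile normalization and 0.01 in the library-term fit. In 1793 genes (11.5%) both PC3M libraries lay above the other 6, and in 2114 (13.6%) both lay below. The stricter overlap of a call with such a separation held 1428 genes (9.16%) higher and 1501 (9.63%) lower. At the extremes, 55 genes (0.353%) were present only in PC3M, with at least 2 scaled FPKM in both PC3M libraries and under 0.5 in the other 6, and 26 (0.167%) were absent only in PC3M, by the same limits reversed. In the library-term fit 178 genes were called higher and 126 lower, of which 174 and 100 were also called in the same direction without the term. The gene that only just passed the filter of 0.5 FPKM in 2 libraries was CHODL, with a second-highest value of 0.5, and the nearest gene outside it was CD52 with 0.4997. Genes high in PC3M alone entered through its 2 libraries. Among those named below, PKP1, CXCL6, LCN2 and MST1R reached 0.5 deposited FPKM in no other library, and EPCAM, CXCL1, FGFBP1 and IL1B in only 1. The separation of such genes is a description and not a test.

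**Figure D1:**
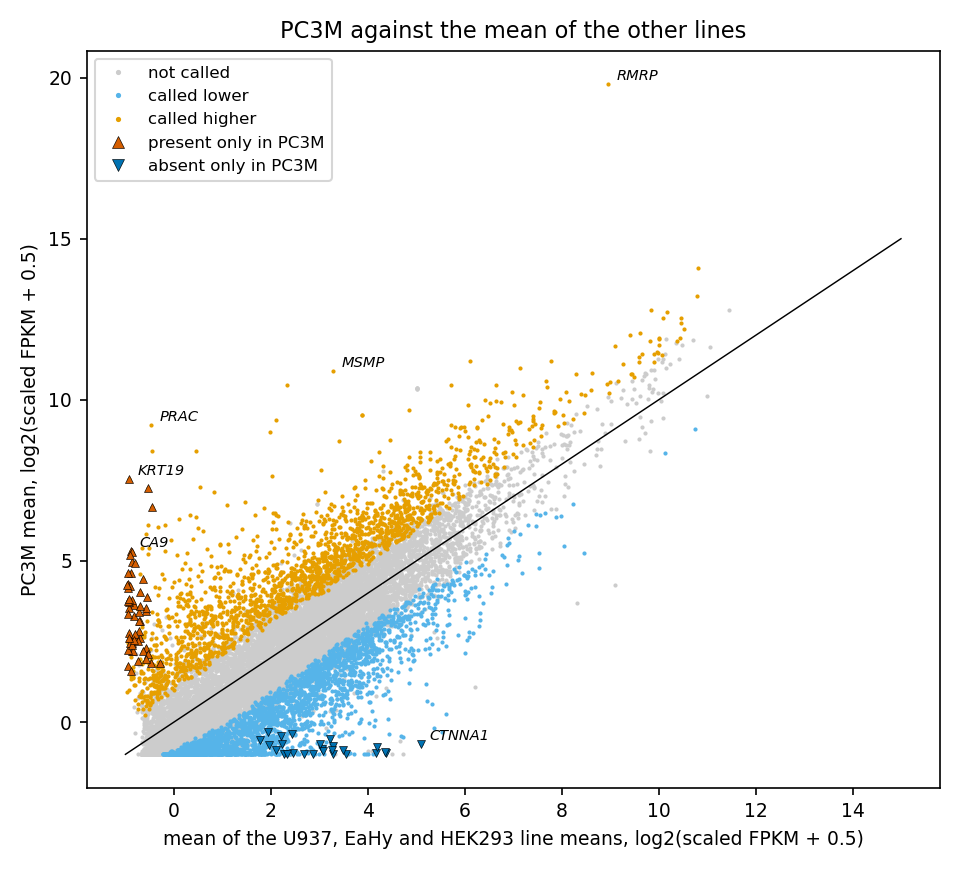
Each point is 1 of 15582 genes: the mean of the U937, EaHy and HEK293 line means on the x axis and the PC3M mean on the y axis, both in log2(scaled FPKM + 0.5), with equality as a line. The 55 genes present only in PC3M form the left edge and the 26 absent only in PC3M the lower edge; RMRP, at the top, is the RNA in which EaHy replicate 2 was also high.

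In all 4 marker genes both PC3M libraries lay above the other 6. The markers were chosen with earlier results of these data known, and all 4 passed the filter only because of the PC3M libraries. No other library reached 0.5 deposited FPKM for KRT19 or CA9, and only U937 replicate 1 did for SFN (0.508) and CLDN4 (0.636). The separation of the 4 markers therefore describes PC3M and does not test its label. KRT19, a simple-epithelium keratin, stood at 198 and 177 scaled FPKM in PC3M, at 0.0275 and 0 in U937, at 0.0657 and 0.0714 in EaHy, and was listed at 0 in both HEK293 libraries. Its log2 difference was 8.48 ± 0.32 (SE, adjusted p = 1.1e-05, limma). SFN encodes 14-3-3 sigma, an epithelial adaptor protein, and stood at 97 and 238 in PC3M against 0.49 and 0.0448 in U937, 0.183 and 0.0814 in EaHy, and 0.251 and 0.152 in HEK293. In these bulk samples fewer cells with a transcript and less of it per cell cannot be told apart. The SFN difference was 7.79 ± 0.44 (SE, adjusted p = 2.7e-05, limma). CLDN4, a tight-junction claudin, stood at 60.7 and 28.4 in PC3M and at most at 0.613, in U937 replicate 1, elsewhere, a difference of 5.90 ± 0.40 (SE, adjusted p = 6e-05, limma). CA9, a cell-surface carbonic anhydrase induced by hypoxia, stood at 37.6 and 40 in PC3M and at most at 0.15 in the other 6, a difference of 6.19 ± 0.32 (SE, adjusted p = 2.7e-05, limma). All 4 remained called in the library-term fit, at differences of 8.47, 7.99, 5.66 and 6.50.

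Promoter sequences were matched for 3 of the 4 markers, SFN, CLDN4 and CA9, and show the stretch from 250 bases before the transcript start to 50 after it. They come from RefSeq on GRCh38.p14, and all 3 lie on the plus strand: SFN at chr1:26862899-26863198, CLDN4 at chr7:73830746-73831045 and CA9 at chr9:35673678-35673977. Capitals mark matches on either strand to ACGTG, the core of a hypoxia-response element, to CAGGTG, the E-box that SNAIL and ZEB factors bind, and to GGGCGG, the GC box. No 2 of these letter strings overlap in the sequences shown.
SFN: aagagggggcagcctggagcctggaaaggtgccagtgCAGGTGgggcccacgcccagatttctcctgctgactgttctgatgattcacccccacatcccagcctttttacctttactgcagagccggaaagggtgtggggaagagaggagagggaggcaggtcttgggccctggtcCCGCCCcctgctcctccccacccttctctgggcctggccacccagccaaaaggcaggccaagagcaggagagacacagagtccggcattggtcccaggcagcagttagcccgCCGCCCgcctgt
CLDN4: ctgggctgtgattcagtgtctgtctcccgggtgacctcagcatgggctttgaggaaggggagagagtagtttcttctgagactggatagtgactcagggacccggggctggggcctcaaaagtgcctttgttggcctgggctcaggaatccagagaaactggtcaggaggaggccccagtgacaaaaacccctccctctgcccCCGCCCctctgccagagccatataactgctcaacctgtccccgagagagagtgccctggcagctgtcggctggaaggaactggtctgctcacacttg
CA9: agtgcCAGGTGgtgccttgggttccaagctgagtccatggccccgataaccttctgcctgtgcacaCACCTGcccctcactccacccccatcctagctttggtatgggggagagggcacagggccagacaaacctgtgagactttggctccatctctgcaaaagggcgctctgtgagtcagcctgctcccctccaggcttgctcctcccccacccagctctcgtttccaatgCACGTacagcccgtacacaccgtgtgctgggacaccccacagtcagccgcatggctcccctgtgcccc

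The CA9 window held 1 ACGTG match, on the minus strand with its first base 18 bases before the start, and 2 CAGGTG matches. SFN held 1 CAGGTG match, 213 bases before the start, and 2 GGGCGG matches. CLDN4 held 1 GGGCGG match, 47 bases before the start. Over the 27305 promoters of the same length, 21.6% held ACGTG, 20.6% CAGGTG and 44.6% GGGCGG, and over the 10864 of tested genes 25.7%, 18.4% and 67.9%. The windows of SFN, CLDN4 and CA9 held 7, 5 and 7 CG dinucleotides, where the median was 14 over all promoters and 26 over those of tested genes. Of the 55 genes present only in PC3M, 34 had a promoter sequence, with a median of 10.5 CG dinucleotides; 13 of them (38.2%) held CAGGTG, 8 (23.5%) ACGTG and 16 (47.1%) GGGCGG. Of the 26 absent only in PC3M, 20 had one, with a median of 34.5 CG dinucleotides; 4 of them (20%) held CAGGTG, 7 (35%) ACGTG and 16 (80%) GGGCGG. These matches describe letters in a window and not binding.

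Keratins differed in both directions. Of 19 keratins listed, 7 passed the filter, 3 were called higher and 1 lower, and their median difference was 0.93 against -0.30 for all genes tested; without the filter the medians were 0.18 and -0.10. The summed level of the list was 479 and 385 scaled FPKM in PC3M, under EaHy (1180 and 910) and above U937 and HEK293 (13 to 40.1). KRT18, the type I partner of KRT8, stood at 231 and 157 in PC3M, between 270 and 305 in EaHy, between 20.2 and 24.4 in HEK293 and at 1.66 and 0.195 in U937, so PC3M and EaHy were both high. KRT8 stood at 38.5 and 22.3 in PC3M against 286 and 239 in EaHy, and its difference of 0.93 ± 0.54 was not called (adjusted p = 0.21, limma); it was called without U937 replicate 1 (1.30, adjusted p = 0.045) and changed sign without scaling (-0.15). KRT15, a keratin of basal cells, was called higher but lay beside EaHy, at 4.87 and 4.38 in PC3M and 3.67 and 6.3 in EaHy, with U937 and HEK293 at most at 0.0528. KRT7, a simple-epithelium keratin, was the member called lower, at 0.448 and 0.479 in PC3M against 557 and 387 in EaHy, with U937 and HEK293 at most at 1.31; its difference was -2.95 ± 0.57 (adjusted p = 0.0071, limma), and the call was lost without PC3M replicate 2 (0.057). The basal-cell keratins KRT5 and KRT14 did not pass the filter, with no deposited value above 0.14. KRT75, a keratin of hair-follicle companion cells, stood at 37.8 and 24.5 in PC3M and at most at 0.189 elsewhere, a difference of 5.75 ± 0.34 (adjusted p = 3.1e-05, limma); it was outside the keratin list. KRT19 and KRT75 remained called in the library-term fit, while KRT18 had a difference of 3.40 there with an adjusted p of 0.091, and KRT15 (adjusted p = 0.18) and KRT7 (0.3) were not called.

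Junction genes were higher in PC3M in 11 of 28 tested and lower in 1, with a median difference of 0.79 that became -0.11 without scaling. The summed level of the list was 267 and 255 scaled FPKM in PC3M, 24.6 to 78.8 in U937 and EaHy, and 150 and 148 in HEK293. PKP1, a desmosomal plakophilin of stratified epithelia, stood at 23 and 54.6 in PC3M and at most at 0.123 in the other 6, a difference of 6.08 ± 0.39 (adjusted p = 4.6e-05, limma). EPCAM, the epithelial adhesion molecule used to capture carcinoma cells, stood at 41.3 and 32 in PC3M, at 0.411 and 0.645 in HEK293 and at most at 0.127 in U937 and EaHy, a difference of 5.73 ± 0.33 (adjusted p = 2.7e-05, limma). The claudins CLDN7 and CLDN3 and the cornified-envelope linker EVPL also had both PC3M libraries above all others, at 3.69 and 8.28, 4.78 and 2.01, and 6 and 5.32. Desmoplakin, DSP, was called higher than the mean of the lines but was not highest in PC3M, at 10.5 and 6.87 against 23.4 and 13.6 in HEK293, and its call was lost without scaling (adjusted p = 0.058). JUP, plakoglobin, was the member called lower, at 0.921 and 0.279 in PC3M against 9.87 to 15.2 in EaHy and HEK293 and 0.725 and 0.276 in U937. The number called higher was 10 to 12 when single libraries were left out and 4 in the library-term fit, in which CLDN7 (3.47, adjusted p = 0.093), CLDN3 (3.45, 0.066), DSP (2.51, 0.11) and JUP (-2.91, 0.085) were not called, at differences no smaller in size than those without the term (2.96, 2.48, 2.36 and -2.41).

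Classical cadherins in PC3M were not headed by E-cadherin. CDH1, E-cadherin, stood at 0.545 and 0.554 in PC3M, inside the range of the other libraries (0 to 1.52), with a difference of 0.13 ± 0.32 (adjusted p = 0.77, limma). CDH11, osteoblast cadherin, stood at 62.8 and 23.4 in PC3M and at most at 0.175 elsewhere, a difference of 6.14 ± 0.41 (adjusted p = 5.4e-05, limma). CDH3, placental cadherin of basal epithelia, stood at 16.5 and 7.52 in PC3M and at most at 0.487 elsewhere, a difference of 4.13 ± 0.37 (adjusted p = 0.00022, limma). CDH2, neural cadherin, stood at 5.96 and 3.98 in PC3M, between U937 (0.0239 and 0.246) and the other lines (15.9 to 28.4), and was not called. CDH11 and CDH3 remained called in the library-term fit.

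Epithelial transcription factors were called higher in 6 of 8 tested, with a median difference of 1.49, and in 3 in the library-term fit. SPDEF passed the filter through PC3M alone, and the median over the whole list without the filter was 0.47, against -0.10 for all genes. The count was 3 without U937 replicate 1, PC3M replicate 1 or either HEK293 library. FOXA1, the pioneer factor of luminal prostate cells, stood at 28.4 and 49 in PC3M, at 2.73 and 2.17 in HEK293 and at most at 0.791 in U937 and EaHy, a difference of 4.97 ± 0.38 (adjusted p = 0.00011, limma). SPDEF, an ETS factor of secretory epithelium, stood at 16.5 and 10.4 in PC3M and at most at 0.0499 elsewhere. ELF3, another epithelial ETS factor, stood at 12.2 and 25.8 in PC3M and at most at 1.68, in U937 replicate 1, elsewhere. These 3 were the members called in the library-term fit. The remaining 9 listed members did not pass the filter, among them GRHL2, listed at 0 in both PC3M libraries, and ESRP1, at 0.27 and 0.0705 deposited FPKM there.

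**Figure D2:**
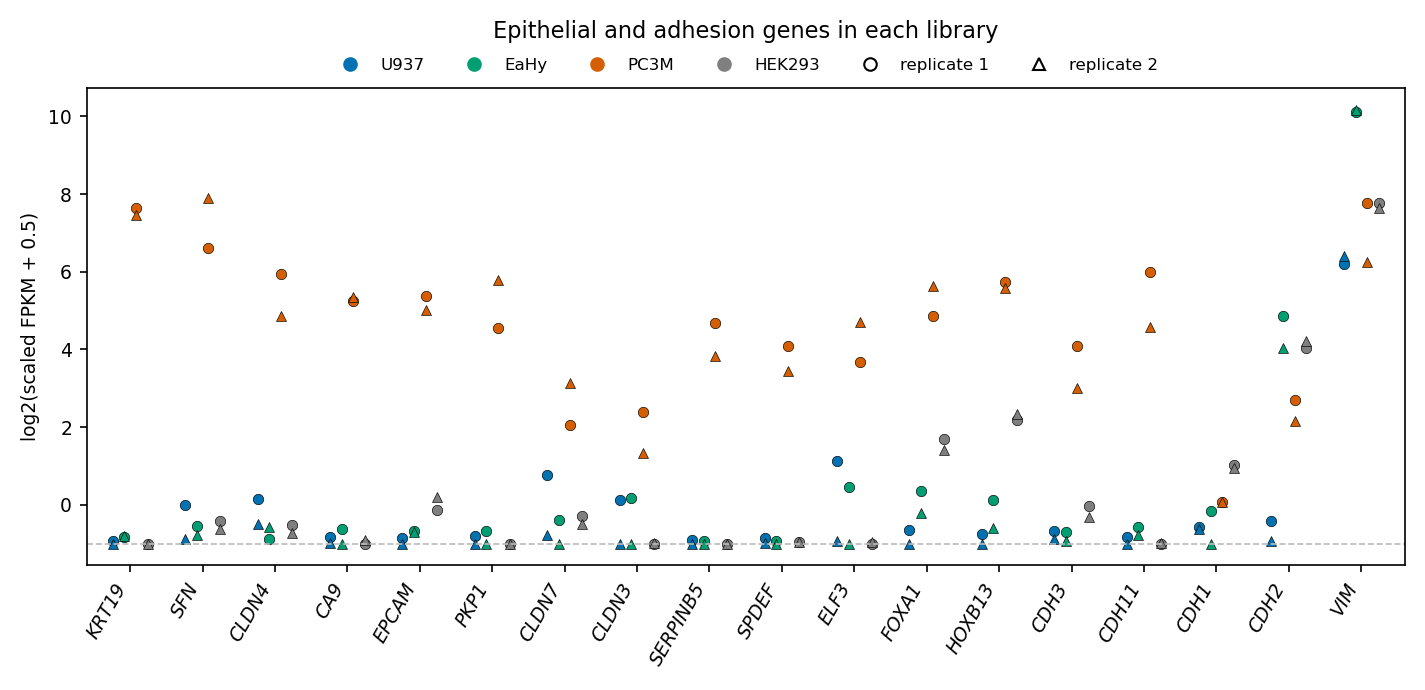
Levels of 18 epithelial and adhesion genes in each of the 8 libraries, in log2(scaled FPKM + 0.5); circles are replicate 1, triangles replicate 2, and the dashed line is a value of 0. PC3M is alone at the top from KRT19 to CDH11 in both replicates, while CDH1, CDH2 and VIM in PC3M lie within the range of the other lines.

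Some genes of stratified or secretory epithelium were among the largest PC3M differences. Of 22 stratified-epithelium and S100 genes listed, 12 passed the filter, of which 9 were called higher and 1 lower. The median difference was 3.45, or 0.69 over the list without the filter, and in the library-term fit 4 were higher. Members that did not pass included IVL, SPRR1A, SPRR1B and LY6D, all listed at 0 in both PC3M libraries. S100A14 did not pass either, at 0.262 and 1.1 deposited FPKM in PC3M. S100A16, a calcium-binding protein, stood at 416 and 1040 in PC3M, at 111 and 249 in EaHy and at most at 0.556 in U937 and HEK293, a difference of 7.26 ± 0.47 (adjusted p = 4.7e-05, limma). SERPINB5, the mammary serpin maspin, stood at 25 and 13.7 in PC3M and at most at 0.0302 elsewhere. CSTA, the keratinocyte protease inhibitor cystatin A, went the other way and was listed at 0 in both PC3M libraries. It was high only in U937, at 73.9 and 22.9, and stood at 0.368 and 1.16 in EaHy and 0.59 and 0.135 in HEK293. S100A16 and SERPINB5 remained called in the library-term fit, and CSTA had an adjusted p of 0.092 there.

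Protease inhibitors and a trypsin followed. SLPI, the secretory leukocyte protease inhibitor of mucous surfaces, stood at 168 and 144 in PC3M, at 7.89 and 3.33 in U937 and at most at 0.607 in EaHy and HEK293, a difference of 6.76 ± 0.39 (adjusted p = 2.7e-05, limma). PI3, the related elafin, stood at 32.1 and 18.3 in PC3M and at most at 0.1 elsewhere, a difference of 5.58 ± 0.34 (adjusted p = 3.3e-05, limma). PRSS3, mesotrypsin, stood at 291 and 396 in PC3M, at 5.91 and 8.4 in EaHy and at most at 0.249 in U937 and HEK293, a difference of 7.96 ± 0.35 (adjusted p = 2.1e-05, limma). PRSS3 has close paralogs among the trypsinogen genes, and how the deposited values split reads between them is not given in the sources used here. SPINT2, an inhibitor of type II transmembrane serine proteases, stood at 38.4 and 16.4 in PC3M and at 21.3 and 23.8 in HEK293, but at no more than 0.26 in U937 and EaHy. In the library-term fit SLPI, PI3 and PRSS3 remained called and SPINT2 had a difference of 3.63 with an adjusted p of 0.052.

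Beside KRT19 the largest differences included genes with known links to prostate. The noncoding RNAs RMRP and TERC, at differences of 10.83 and 8.13, were also high in EaHy replicate 2; both fell to 2.82 in the library-term fit (adjusted p = 0.71 and 0.24) and lost their call without PC3M replicate 2 (0.11 and 0.054), RMRP also without PC3M replicate 1 (0.05). PRAC, named for its expression in prostate, rectum and colon, stood at 324 and 1100 in PC3M, at 1.41 and 0.233 in HEK293 and at most at 0.261 in U937 and EaHy, a difference of 9.69 ± 0.55 (adjusted p = 2.7e-05, limma). MSMP, prostate-associated microseminoprotein, stood at 1660 and 2180 in PC3M against 3.27 to 21 in the other 6, a difference of 7.61 ± 0.40 (adjusted p = 2.7e-05, limma). HOXB13, the homeobox factor of posterior tissues and prostate, stood at 53.2 and 47.6 in PC3M, at 4.01 and 4.6 in HEK293 and at most at 0.598 in U937 and EaHy, a difference of 5.28 ± 0.36 (adjusted p = 5.5e-05, limma). CRABP2, a retinoic-acid carrier, stood at 261 and 1010 in PC3M against 17 and 12.5 in HEK293 and at most 2.55 in the other lines. PRAC, MSMP, HOXB13 and CRABP2 remained called in the library-term fit, with differences of 9.78, 6.98, 5.90 and 6.47.

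Prostate luminal and androgen-related genes differed in both directions. KLK2, KLK3 (prostate-specific antigen), TMPRSS2 and FOLH1 (prostate-specific membrane antigen) did not pass the filter, and none had a deposited value above 0.0269 in a PC3M library. FKBP5, an androgen and glucocorticoid target, stood at 4.34 and 4.24 in PC3M, just under EaHy replicate 2 (4.59), and was highest in U937 at 195 and 166; its adjusted p was 0.0026 and 0.22 in the library-term fit. STEAP1, a surface antigen of prostate, was called higher at 16.5 and 14.1 in PC3M but lay under EaHy (28.8 and 25.4). SLC45A3, prostein, was also called higher, at 5.54 and 5.31 in PC3M with EaHy at 3.96 and 10.2; its adjusted p of 0.041 was 0.051 to 0.15 without any single library other than EaHy replicate 2 (0.015) and 0.84 in the library-term fit. STEAP1 had an adjusted p of 0.096 in that fit. Of the 10 tested members of the list, 3 were called higher, HOXB13 among them, and 2 lower, with a median of -0.11; in the library-term fit 1 was higher and none lower, and without either PC3M or either HEK293 library 2 were higher and 1 lower.

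Of the 55 genes present only in PC3M, those with the highest lower value were, besides KRT19, SFN and CA9, several of known function. PGM5, a phosphoglucomutase-related protein of adherens junctions and muscle, stood at 87 and 117 in PC3M and at most at 0.438 elsewhere. ANXA10, an annexin of gastric epithelium, stood at 26 and 22.5, and AGR2, a disulfide isomerase of mucus-secreting cells linked to adenocarcinoma, at 20.2 and 17.9; neither exceeded 0.146 in another library. All of these were called in the library-term fit. The number present only in PC3M was 57 to 82 when 1 library was left out, which cannot lower it. It was 33 without scaling, 32 when presence was set at 5 FPKM and 30 when absence was set under 0.2.

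NF-kB chemokines and cytokines formed the next group, with 12 of 27 tested called higher, 1 lower, 9 with both PC3M libraries above the rest, and a median difference of 0.88 (0.54 without the filter and 0.24 without scaling). CXCL1, a neutrophil-attracting chemokine, stood at 31.1 and 18.2 in PC3M and at most at 0.654 elsewhere, a difference of 5.30 ± 0.39 (adjusted p = 7.8e-05, limma). Its relative CXCL6 stood at 15.4 and 9.15 against at most 0.216. IL8 (CXCL8) stood at 23.1 and 25.8 in PC3M, at 1.45 and 10.8 in U937, at 3.07 and 1.27 in EaHy and at most at 0.0754 in HEK293, a difference of 3.73 ± 0.61 (adjusted p = 0.0038, limma). IL1B, the interleukin 1 beta precursor, stood at 11.6 and 8.86 in PC3M and at most at 0.728, in U937, elsewhere. LCN2, the siderophore-binding lipocalin, stood at 11.5 and 8.1 and at most at 0.0953 elsewhere. The count of members called higher was 10 to 12 when a library was left out and 4 in the library-term fit, where CXCL1, CXCL6, LCN2 and IL1B were called and IL8 was not (adjusted p = 0.088).

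Receptors and ligands of growth signalling were mixed. Among receptor tyrosine kinases 5 of 22 tested were called higher and 4 lower, where the shares over all genes tested were 13% and 16.9%. MST1R, the receptor RON, stood at 12.4 and 10.8 in PC3M and at most at 0.208 elsewhere, a difference of 4.30 ± 0.31 (adjusted p = 6.8e-05, limma). Its homologue MET stood at 33.1 and 20.9 in PC3M, 14 and 10.3 in EaHy, 6.25 and 6.61 in HEK293 and at most 0.218 in U937, so PC3M was highest and EaHy next. IGF1R, the insulin-like growth factor receptor, stood at 0.57 and 0.232 in PC3M against 1.95 to 9.39 in the other 6, a difference of -2.71 ± 0.45 (adjusted p = 0.0039, limma). Of 23 ligands 8 were called higher and 5 lower. Without PC3M replicate 2 the lower receptors were 2, the higher ligands 5 and the lower ligands 1, and without PC3M replicate 1 the lower ligands were 3. FGFBP1, a carrier that releases FGFs from matrix, stood at 67.6 and 48.4 in PC3M and at most at 0.701 elsewhere, a difference of 6.43 ± 0.45 (adjusted p = 6.3e-05, limma). AREG, amphiregulin, an EGF receptor ligand, stood at 6.79 and 5.76 in PC3M and at most at 1.07, in EaHy, elsewhere. In the library-term fit MST1R, MET, FGFBP1 and AREG remained called, and IGF1R had a difference of -1.82 with an adjusted p of 0.28.

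Cell-matrix attachment genes differed in both directions, as did all genes tested (13% called higher and 16.9% lower). All 11 hemidesmosome and laminin-332 genes were tested; 5 were called higher and 2 lower, with a median of 1.15 that was 0.02 without scaling and 0.43 without PC3M replicate 1, and 3 were higher without PC3M replicate 1 or HEK293 replicate 1. None was lower without U937 replicate 1, either PC3M library or either HEK293 library, and in the library-term fit 1 was higher and none lower. ITGA3, the integrin alpha 3 that binds laminin-332, was high in PC3M (53.3 and 46.4) and higher still in EaHy (70 and 136), and its adjusted p was 0.086 in the library-term fit. Of 6 tested serine proteases and inhibitors of epithelium 2 were called higher and 1 lower; 1 was higher without PC3M replicate 1 or either HEK293 library, and none was called in the library-term fit.

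Surface antigens of carcinoma cells were called higher in 10 of 17 tested and lower in 1, with a median difference of 1.48 that was 0.37 without scaling and 0.63 without the filter. In 4 of the 17 both PC3M libraries lay above the other 6. The summed level of the list was 385 and 506 scaled FPKM in PC3M, 1270 and 2570 in EaHy, and 42.5 to 72.9 in U937 and HEK293. TM4SF1 was called higher, at 63 and 93.6 in PC3M, but lay under EaHy at 247 and 829. The number higher was 7 to 10 when a library was left out and 2 in the library-term fit. CDCP1, a transmembrane glycoprotein of carcinoma cells, stood at 23 and 24.5 in PC3M and at most at 0.806 elsewhere, a difference of 4.85 ± 0.39 (adjusted p = 0.00013, limma). CD24 stood at 22.1 and 12.7 in PC3M and at most at 4.84 elsewhere; it has several processed copies in the genome, so its value is uncertain. CD55, which protects cells from complement, stood at 72.4 and 160 in PC3M against 7.84 to 20.5 in the other 6. The tetraspanin CD82, known as a metastasis suppressor, was the member called lower, at 0.578 and 1.43 in PC3M and between 9.69 and 24 in U937 and EaHy, with HEK293 as low as PC3M at 0.991 and 1.9. CDCP1 and CD24 were called in the library-term fit, and CD55 (adjusted p = 0.19) and CD82 (adjusted p = 0.07) were not.

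Cancer-testis genes, normally silent outside the germ line, split by gene. Of 31 listed 11 passed the filter, 4 were called higher and 3 lower. MAGEA12 stood at 74.6 and 49.6 in PC3M, at 7.65 and 15.5 in EaHy and at most at 0.0749 in U937 and HEK293, a difference of 5.34 ± 0.39 (adjusted p = 7.8e-05, limma). MAGEA3 and MAGEA6, whose sequences are nearly identical so that reads between them are uncertain, stood at 60.8 and 33.7, and at 45.6 and 27.1. All 3 were higher in PC3M than in every other library and were called in the library-term fit. XAGE1B was high only in U937, at 50 and 61.1. It was listed at 0 in both PC3M libraries, both HEK293 replicates were at or next to 0, and EaHy stood at 0.0266 and 0. XAGE1B has near-identical copies too, and it was not called in the library-term fit (adjusted p = 0.083).

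Hypoxia-inducible genes were called higher in 13 of 37 and lower in 5, with a median of 0.81 that was -0.30 without scaling. The count of 13 was 3 without PC3M replicate 2, 4 without either HEK293 library, 7 without EaHy replicate 1, 8 without either U937 library or PC3M replicate 1, 12 without EaHy replicate 2, and 2 in the library-term fit. The count of 5 was 1 to 3 without U937 replicate 1, EaHy replicate 1, HEK293 replicate 1 or either PC3M library. The members that held in the library-term fit were CA9 and CA12, 2 extracellular carbonic anhydrases. CA12 stood at 24 and 13.1 in PC3M and at most at 0.974 elsewhere, a difference of 4.24 ± 0.40 (adjusted p = 0.00027, limma). SLC2A3, the glucose transporter GLUT3, was lower, at 0.0225 and 0.365 in PC3M against 1.76 to 22.9 in the others, a difference of -3.32 ± 0.57 (adjusted p = 0.0043, limma; 0.07 in the library-term fit).

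Further lists were counted in the same way, beside shares of 13% called higher and 16.9% lower over all genes tested. Of 36 interferon-stimulated genes 4 were called higher and 7 lower (3 lower without PC3M replicate 2), with a median of -0.33. OASL, a 2'-5'-oligoadenylate synthetase-like protein, stood at 14.1 in both PC3M libraries and at most at 2.26 elsewhere, a difference of 3.50 ± 0.36 (adjusted p = 0.00043, limma). BST2, the antiviral tetherin, was listed at 0 in both PC3M libraries. It was high only in U937, at 55.1 and 102, and stood between 0.486 and 1.35 in EaHy and HEK293. OASL and BST2 were called in the library-term fit. Of 25 NRF2 targets 4 were called higher and 2 lower, with a median of 0.12. AKR1B1, aldose reductase, stood at 0.211 and 0.34 in PC3M, next to U937 at 0.487 and 0.0614, against 84.2 to 184 in EaHy and HEK293, a difference of -4.81 ± 0.42 (adjusted p = 0.00018, limma), and was called in both fits. Of 23 cholesterol-synthesis genes 4 were called higher and 1 lower, and 1 higher in the library-term fit; the 4 became 2 without U937 replicate 1, 9 without EaHy replicate 2 and 1 without PC3M replicate 2. Of 21 amino acid transport genes none was called higher and 1 lower (2 higher and 3 lower without PC3M replicate 1), and of 11 neuroendocrine genes 1 was higher and 3 lower (1 and 0 lower without PC3M replicates 1 and 2).

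Genes with low or missing values in PC3M started with alpha-catenin. CTNNA1 stood at 0.0707 and 0.189 in PC3M against 9.7 and 9.1 in U937, 99.2 and 131 in EaHy, and 37.9 and 33.2 in HEK293. Its difference of -5.78 ± 0.30 (adjusted p = 2.7e-05, limma) was the largest of the 26 genes absent only in PC3M, and it was -6.11 in the library-term fit (adjusted p = 0.0073).

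Of the PI3-kinase and AKT pathway, which passes growth factor signals to survival and metabolism, 25 genes were tested; 2 were called higher and 7 lower, with a median of -0.68. Without PC3M replicate 2, 1 was higher and 3 were lower; 1 was higher without either U937 library, PC3M replicate 1 or HEK293 replicate 2, none without HEK293 replicate 1, and no member was called in the library-term fit. FOXO1, a transcription factor restrained by AKT, stood at 0.379 and 0.427 in PC3M against 1.68 to 3.55 in the other 6, a difference of -1.88 ± 0.37 (adjusted p = 0.0071, limma; 0.26 in the library-term fit). INPP5D, the blood-cell phosphatase SHIP1, was listed at 0 and at 0.0194 in PC3M, was highest in U937 at 43.8 and 30.5, and stood between 0.261 and 0.606 in EaHy and HEK293.

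CDKN1A, DDB2 and BTG2, single genes chosen with their values known, were called lower in PC3M. CDKN1A, the cell-cycle inhibitor p21, stood at 2.96 and 1.76 in PC3M against 6.4 to 52.1 in the other 6, a difference of -2.71 ± 0.36 (adjusted p = 0.0016, limma). DDB2, a DNA damage recognition protein, stood at 4.44 and 2.4 against 7.04 to 45.7, and its adjusted p of 0.0053 became 0.15 in the library-term fit and 0.051 without PC3M replicate 2. BTG2, an antiproliferative protein, was listed at 0 and at 0.406 in PC3M against 0.702 to 16.9. In the library-term fit CDKN1A and BTG2 had adjusted p-values of 0.058 and 0.056 at differences of -3.14 and -3.53. PERP, a desmosomal protein, was called higher, at 16.5 and 12.8 in PC3M, but HEK293 was beside it at 11.5 and 15.4. U937 and EaHy stood at most at 1.55. PERP lost its call without scaling (adjusted p = 0.1, limma) and in the library-term fit (0.086).

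Further genes absent only in PC3M had a range of functions. PAFAH1B3, a subunit of platelet-activating factor acetylhydrolase, was listed at 0 and at 0.0546 in PC3M and stood between 17.7 and 21.6 in the other 6, a difference of -5.28 ± 0.30 (adjusted p = 2.7e-05, limma). HEXA, the alpha subunit of lysosomal hexosaminidase, stood at 0.0375 and 0 in PC3M and between 8.92 and 29.6 elsewhere, a difference of -5.33 ± 0.37 (adjusted p = 6.1e-05, limma). STAT5B, a cytokine-activated transcription factor, was listed at 0 and at 0.00551 in PC3M and stood between 7.61 and 21.5 elsewhere. CENPV, a centromere protein, was listed at 0 and at 0.0187 against 8.19 to 51.3. EPB41L3, a membrane skeleton protein known as a tumour suppressor, was listed at 0 in both PC3M libraries and stood between 5.67 and 14 elsewhere (adjusted p = 0.00016, limma). The transcriptional repressor CIC was also listed at 0 in both, against 3.02 to 12.2. All of these but CIC (adjusted p = 0.089) were called in the library-term fit. A value of 0 in these files can be an estimate that failed, so a 0 is not evidence of no transcript. The count of 26 was 27 to 72 when a library was left out (72 without EaHy replicate 2 and 69 without PC3M replicate 1), 52 without scaling, 61 with presence set at 1 FPKM and 7 at 5 FPKM. Leaving out a library cannot lower this count, since fewer libraries then have to meet the limits.

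The genes next to the absent ones along the chromosome were examined by their order in the RefSeq annotation, which is on another build than the files and so was used for order only. Only tested protein-coding genes were ordered, and other genes lying between them were passed over. Of the 26, 25 were placed. They had 47 adjacent tested genes that were not themselves absent only in PC3M, of which 22 (46.8%) were called lower, 15 (31.9%) had both PC3M libraries below the other 6, and 1 was called higher; over all genes tested the first 2 shares were 16.9% and 13.6%. CIC and PAFAH1B3 were adjacent. Beyond PAFAH1B3 lay PRR19, listed at 0 in both PC3M libraries and between 1.24 and 3.74 elsewhere. HEXA was separated by CELF6, low in every library, from PARP6, listed at 0 in both PC3M libraries and between 2.2 and 10.5 elsewhere, and on its other side lay ARIH1, a ubiquitin ligase at 3.7 and 2.37 in PC3M against 11.2 to 19. PKM, on the far side of PARP6, was not called (adjusted p = 0.47, limma) except after quantile normalization (difference -1.44, adjusted p = 0.042). PRR19 and ARIH1 were called lower, but not in the library-term fit (adjusted p = 0.07 and 0.14).

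STAT5B lay in a run of 5 consecutive tested genes that were below the other 6 libraries in both PC3M libraries: RAB5C, GHDC, STAT5B, STAT5A and STAT3. Untested genes between them were passed over, so the run need not be contiguous. All 5 were listed at 0 in PC3M replicate 1. In replicate 2 they stood at 2.33, 1.08, 0.00551, 0.438 and 2.29. STAT3, the transcription factor of interleukin 6 signalling, stood between 9.53 and 14.9 in the other 6 libraries, a difference of -3.36 ± 0.57 (adjusted p = 0.0042, limma; 0.16 in the library-term fit). RAB5C, an early-endosome GTPase, stood between 37 and 85.8 elsewhere, a difference of -5.37 ± 0.58 (adjusted p = 0.00063, limma; 0.071 in the library-term fit). PC-3 is known as a line that lacks STAT3. Among the 13899 tested genes placed in order, 31 runs of at least 4 genes lay below in this way, and 5 of them, this run included, had 5 genes, the longest length found. SIL1, the neighbour of CTNNA1 and a cochaperone of the endoplasmic reticulum, stood at 1.19 and 1.61 in PC3M against 5.51 to 27.9, a difference of -2.47 ± 0.40 (adjusted p = 0.0036, limma; 0.032 in the library-term fit), whereas HSPA9 on the other side was not called.

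**Figure D3:**
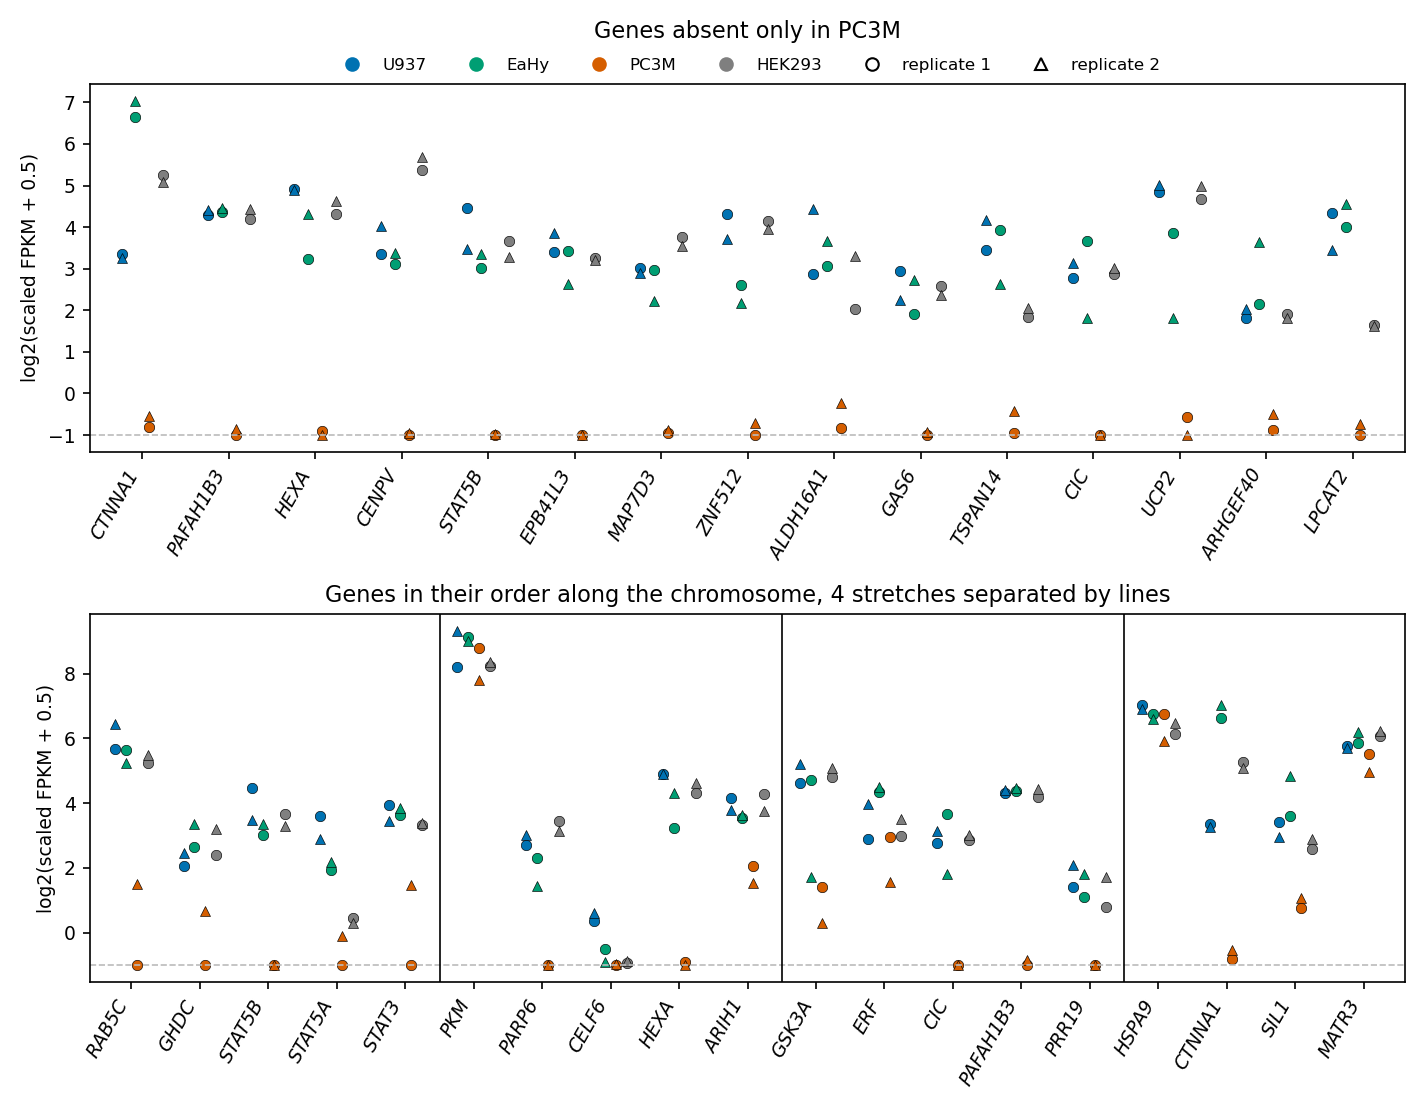
Levels in each library, in log2(scaled FPKM + 0.5), of 15 genes absent only in PC3M (top) and of 4 stretches of neighbouring tested genes in chromosome order (bottom). Untested genes between them are not shown, and the dashed line is a value of 0. In the top panel PC3M lies at or near the line for the 15 genes, and in the bottom panel PKM and HSPA9, beside the stretches around HEXA and CTNNA1, do not share the low values.

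Matrix proteases and mesenchymal genes held more members called lower than higher, and EaHy had the highest summed level of both lists. The protease list summed to 264 and 138 scaled FPKM in PC3M, 108 to 240 in U937 and HEK293, and 2000 and 1330 in EaHy. The mesenchymal list summed to 247 and 111 in PC3M, 110 to 300 in U937 and HEK293, and 1510 and 1530 in EaHy. Of 16 plasminogen-activator, metalloprotease and inhibitor genes tested 8 were called lower and 1 higher, with a median difference of -1.19; 5 were called lower without PC3M replicate 2 and 1 in the library-term fit. MMP2, a gelatinase, stood at 0.0252 and 0.0111 in PC3M against 0.819 to 102 elsewhere, a difference of -4.59 ± 0.55 (adjusted p = 0.001, limma; 0.094 in the library-term fit). MMP2 lies next to LPCAT2, 1 of the 26 absent genes. TIMP3, a metalloprotease inhibitor, stood at 0.0476 and 0.0068 in PC3M and was called in both fits. U937 was also low at 0.316 and 0.181, HEK293 stood at 6.2 and 5.03, and EaHy was highest at 86.1 and 47. PLAU, urokinase, was the member called higher, at 148 and 67 in PC3M, 78.7 and 62.6 in EaHy, 7.97 and 10.2 in U937, and 1.16 and 0.314 in HEK293; its adjusted p was 0.063 in the library-term fit. Of 18 mesenchymal genes 7 were called lower, 1 higher and 10 in neither direction, with a median of -0.99; 2 were lower in the library-term fit. ZEB2, a repressor of E-cadherin, stood at 0.213 and 0.04 in PC3M against 1.88 to 25.1 elsewhere, a difference of -3.38 ± 0.46 (adjusted p = 0.0018, limma; 0.16 in the library-term fit). SPARC, a matrix glycoprotein, stood at 0.173 and 0.112 in PC3M and was called in both fits. U937 was also low at 0.308 and 0.347, HEK293 stood at 3.16 and 2.59, and EaHy was highest at 64.5 and 130. VIM, vimentin, was not called: it stood at 219 and 75.2 in PC3M, next to U937 (73.6 and 84.2) and HEK293 (219 and 199), and at 1110 and 1150 in EaHy. Its difference was -1.04 ± 0.43 (adjusted p = 0.093, limma), and VIM was called lower without scaling (-2.22, adjusted p = 0.033), after quantile normalization (-1.82, 0.021) and without PC3M replicate 1 (-1.81, 0.014).

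Markers of blood and endothelial cells were low in PC3M, and those of HEK293 were not uniformly so. Of 22 blood-cell markers 16 were called lower and none higher, with 3 lower in the library-term fit, and their summed level was 12.6 and 26.4 scaled FPKM in PC3M against 3310 and 4530 in U937, 291 and 237 in EaHy, and 18 and 6.42 in HEK293. LAPTM5, a lysosomal protein of blood cells, was listed at 0 in both PC3M libraries and stood at 196 and 278 in U937, 28.9 and 15.1 in EaHy, and 0.764 and 0.0206 in HEK293. Of 25 endothelial markers 14 were called lower and 1 higher, with 6 lower in the library-term fit and summed levels of 63.8 and 40 in PC3M against 1060 and 1870 in EaHy, 67.2 and 63.7 in U937, and 26.8 and 21 in HEK293. Of 21 markers of embryonic kidney and neuronal cells 4 were called higher and 5 lower (3 lower without PC3M replicate 2, none in the library-term fit), and the summed level was 684 and 540 in PC3M against 989 and 880 in HEK293, 258 and 311 in EaHy, and 25.7 and 12.7 in U937. UCHL1, a neuronal ubiquitin hydrolase, stood at 510 and 362 in PC3M, above EaHy (147 and 146) and HEK293 (76.5 and 120), with U937 at 0.58 and 0. IRS4, an HEK293 marker, was listed at 0 and at 0.00514 in PC3M against 217 and 128 in HEK293, and was called lower but not in the library-term fit (adjusted p = 0.15).

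**Figure D4:**
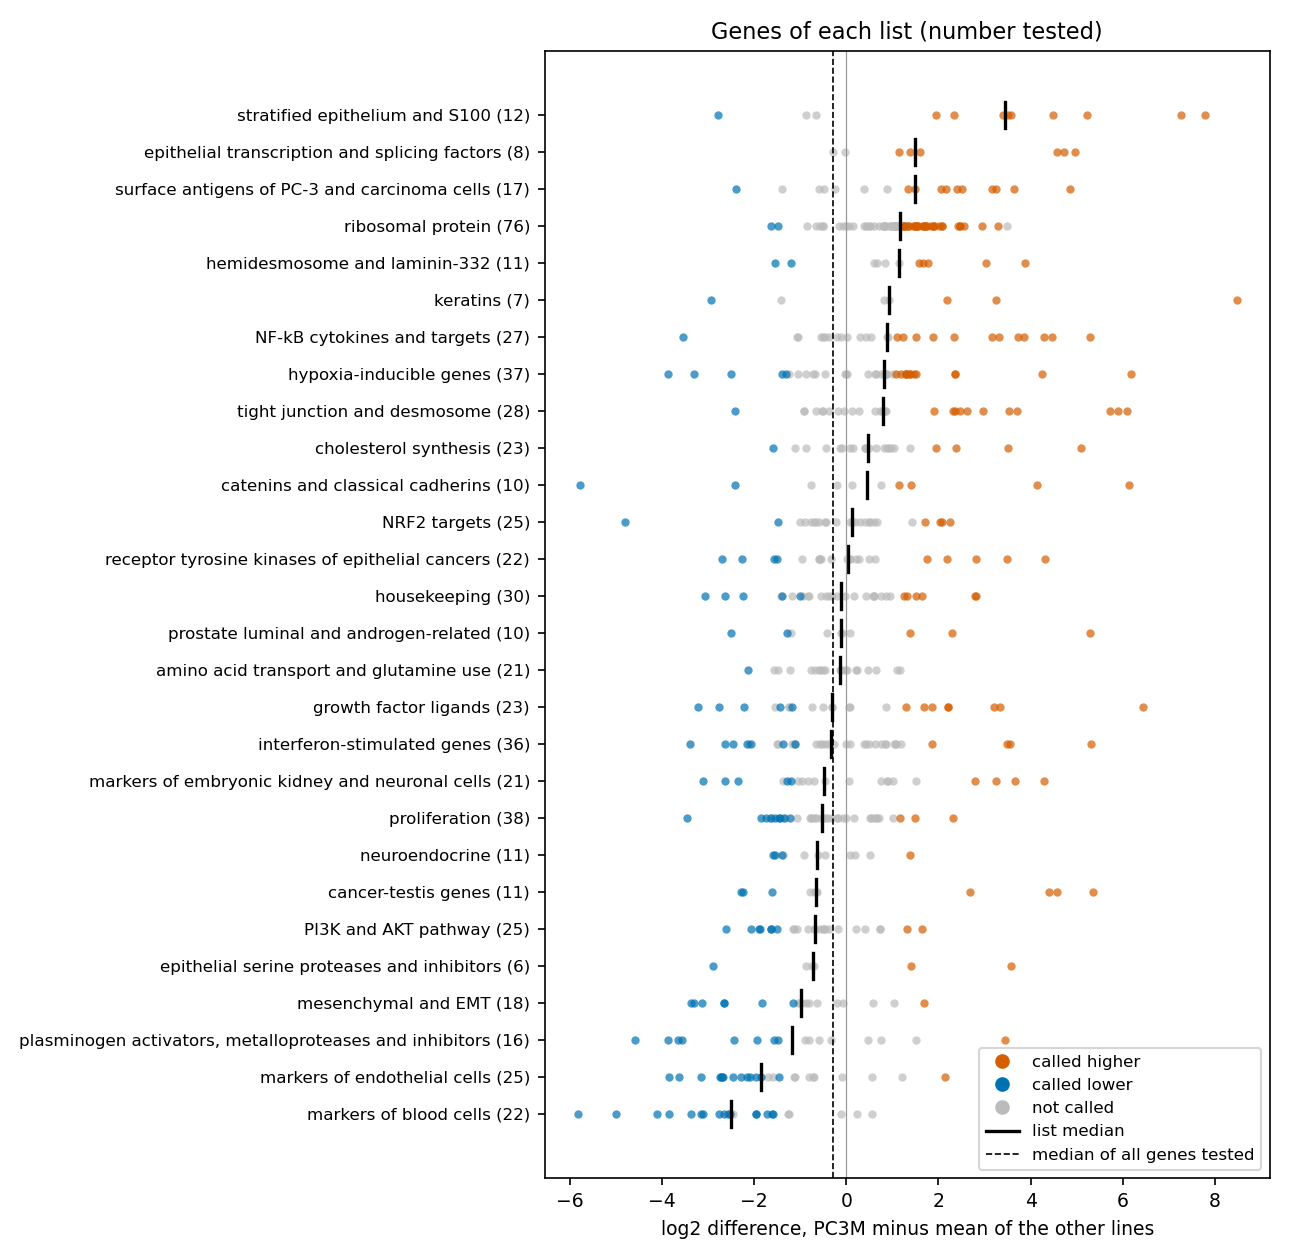
Log2 difference, PC3M minus the mean of the other lines, for the tested genes of each of 28 lists, ordered by the list median (bar), with the median of all genes tested (-0.30) as a dashed line. Stratified-epithelium genes lie at the top (median 3.45) and markers of blood cells at the bottom (median -2.5), and within most lists called genes lie on both sides.

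Other groups moved with the libraries that stood apart. Of 76 ribosomal protein genes 31 were called higher and 2 lower, 42 had both PC3M libraries above the others, and the median difference was 1.17. That median was -0.01 without scaling and -0.01 after quantile normalization, the count of 31 was 3 without PC3M replicate 2, 6 without either HEK293 library, 11 and 8 without U937 replicates 1 and 2, and 45 without EaHy replicate 2, and in the library-term fit no member was called in either direction. Of 38 proliferation genes 9 were called lower and 3 higher, and none lower without PC3M replicate 2 or in the library-term fit. Without either HEK293 library 2 were lower, and without U937 replicate 2, 5; without PC3M replicate 2 or either HEK293 library 1 was higher. MKI67, the Ki-67 antigen, shows the pattern: it stood at 1.76 and 1.17 in PC3M and at 2.85 in EaHy replicate 2, but at 40.1 in EaHy replicate 1, 49.1 and 27.5 in U937, and 31.8 and 15.2 in HEK293. Its difference of -3.46 ± 0.79 (adjusted p = 0.014, limma) was lost without PC3M replicate 2 (adjusted p = 0.1) and was -0.46 in the library-term fit (adjusted p = 0.8). RAB7A, a late-endosome GTPase, behaved the same way, at 6.7 and 8.99 in PC3M, 12 in EaHy replicate 2 and 48.9 to 95.9 elsewhere, and its difference of -2.62 became -0.69; it lost its call without PC3M replicate 2 (adjusted p = 0.052). Of 30 housekeeping genes 6 were called higher and 5 lower, and the 2 counts ran from 1 to 6 and from 1 to 8 with single libraries left out, lowest without PC3M replicate 2. The part of library preparation in these values was not tested, and PC3M and this library feature cannot be told apart from the PC3M libraries alone.

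Transcript length moved with the difference as well. A length from GENCODE release 29 was matched to 90.4% of the genes tested, and over the 5 length classes above 500 bases the median log2 difference ran from -0.07 for 3357 genes of 500 to 1000 bases to -0.50 for 1144 genes over 5000 bases. The 152 genes of up to 500 bases broke this order at -0.42, with EaHy replicate 2 minus replicate 1 at -0.52 and HEK293 replicate 2 minus replicate 1 at -0.13. Over the 5 longer classes EaHy replicate 2 minus replicate 1 ran from -0.04 to -0.29 and HEK293 replicate 2 minus replicate 1 from 0 to -0.28. The share of genes called lower in PC3M was 15.1% at 500 to 1000 bases and 22.8% over 5000 bases, and the share called higher was 18.2% and 8.22%. The part of length in the single-gene results was not tested.

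**Figure D5:**
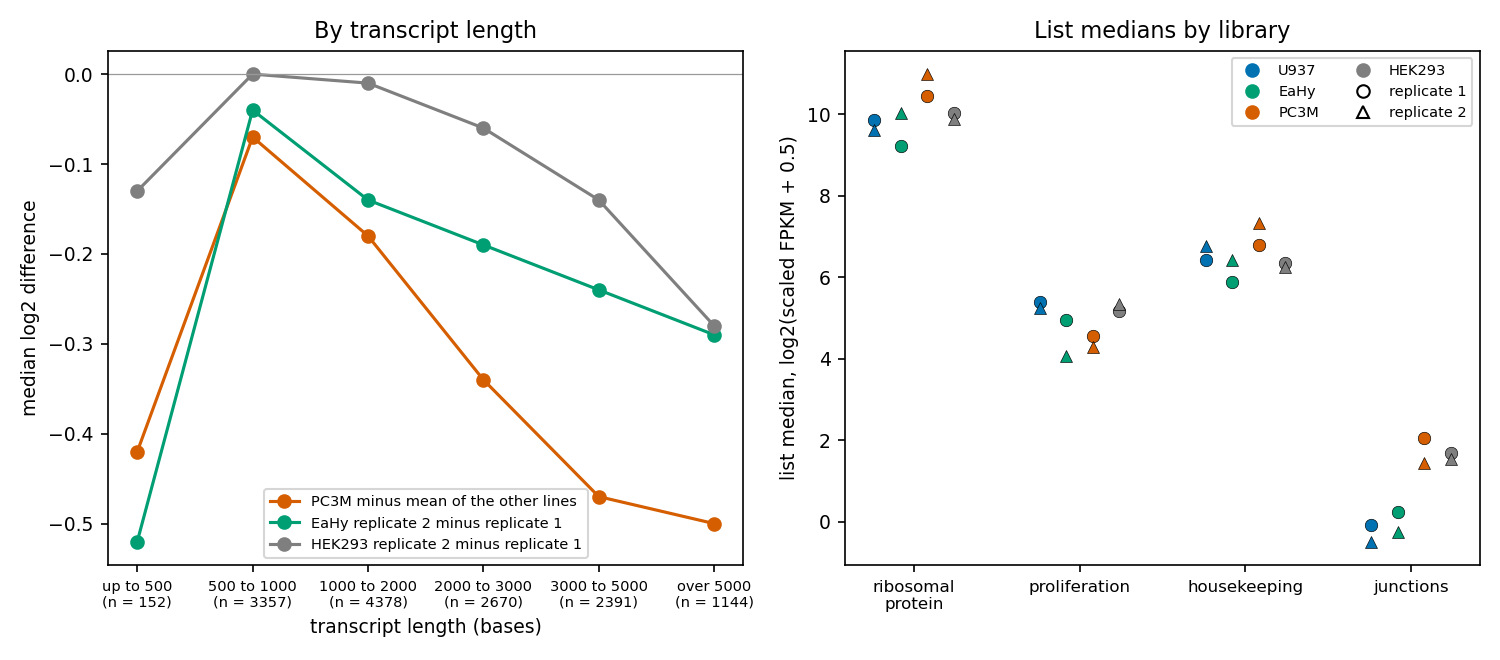
Left: median log2 difference by transcript length for PC3M minus the other lines and for replicate 2 minus replicate 1 of EaHy and HEK293, with the number of genes per class. Right: median log2(scaled FPKM + 0.5) of 4 gene lists in each library (circles replicate 1, triangles replicate 2), where proliferation is lowest in EaHy replicate 2 and both PC3M libraries.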

How the data were processed

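The series deposited 1 table of FPKM values for 23615 gene symbols in 8 libraries, made by the authors with cutadapt, TopHat2 2.0.11 and Cufflinks 2.2.1 on hg19, per the submitters' processing notes; all 8 value columns were used. FPKM hold no counts, so depth and counting error are unknown. The table gives no strand, and the library kit as named does not mark it, so overlapping and antisense genes cannot be told apart. Genes with at least 0.5 FPKM in 2 libraries (16295) were scaled by the upper quartile, 713 HIST, SNOR, SCARNA, MIR and RNU symbols were left out, and 15582 were tested with limma 3.58.1 in R 4.3.3: 1 term per line over all 8 libraries, prior spread following the level, no block, two-sided. The procedure was tested on simulated data. Figures were drawn with matplotlib 3.10.9 in Python 3.11.15.

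The members and the 30 gene lists were chosen with earlier results of these data known; some genes and 2 of the lists are not reported here. Genes are named by rule: the 12 largest called differences per direction among genes whose PC3M libraries lay outside the other 6 (symbols beginning LOC, LINC or C with a number and orf left out), 15 present only and 15 absent only in PC3M by level, up to 4 called members per list and direction with every member of lists of at most 12, the markers, and the neighbours of absent genes. DDB2, DSP, EVPL, CLDN3, CLDN7, IL8, KRT8, and VIM were chosen after their values were seen. Replicate numbers were checked for pairing: deviations of same-numbered libraries correlated between -0.13 and 0.49 over pairs of lines, so they were not taken as pairs. Alternatives were pseudocounts of 0.1 and 1, no filter or 1 FPKM, no scaling, quantile normalization, scaling without the left-out symbols, a single or robust prior, a replicate block, the library term, a test against a difference of 1, other limits for presence and absence, and leaving out each library. Promoters and gene order are from RefSeq on GRCh38.p14; transcript lengths are medians per symbol from GENCODE release 29.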

Additional observations from a re-analysis of the deposited data

How the results depend on the processing

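The counts of genes higher and lower (2019 and 2627) stayed within 1.5 times under both pseudocounts, both filters, quantile normalization, scaling without the left-out symbols and both priors. They were 491 and 5006 without scaling, 178 and 126 with the library term and 404 and 236 when tested against a difference of 1. Leaving out 1 library gave 882 to 2121 higher and 657 to 3407 lower, the lowest of them without PC3M replicate 2 (882 and 657). The counts were 1223 and 1338 when HEK293 replicate 1 was dropped and 1292 and 1528 when its replicate 2 was. Genes above all other libraries numbered 430 without scaling and 1870 to 3281 with 1 library left out (3281 without PC3M replicate 1 and 2770 without replicate 2), and genes below them 3329 and 2194 to 3979 (3695 without EaHy replicate 2 and 3979 without PC3M replicate 1). Genes absent only in PC3M numbered 52 without scaling, 61 and 7 with presence from 1 and 5 FPKM, and 27 to 72 with 1 library left out. Genes present only in PC3M numbered 33 without scaling, 32 with presence from 5 FPKM, 30 with absence under 0.2, and 57 to 82 with 1 library left out. Leaving out a library cannot lower the counts of genes above, below, absent only or present only. Fewer libraries then have to meet the limits, so the direction of those moves was fixed. Without scaling 90 genes called higher changed sign, and with the library term 4 higher and 85 lower genes did. The cause of these moves was not tested.

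With the replicate number as a block 2122 genes were higher and 2904 lower; the numbers were not taken as pairs. Single genes that changed sign were not called: CDH1 without scaling (-0.42) and with single libraries left out (-0.01 to 0.27), CDH2 with a pseudocount of 0.1 (0.23), with the library term (0.48) and with single libraries left out (-0.47 to 0.06), KRT8 without scaling (-0.15), and HSPA9 (-0.73 to 0.11) and PKM (-0.92 to 0.09) with single libraries left out. With 2 libraries per line, 1 library could decide many calls, and depth in counts is unknown.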
